A study of Mus musculus with 8 samples.

Results

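The genes C4b, C3, Serping1, Cd59a and Cd55 were examined in mature oligodendrocytes: 5 named members of the complement system out of 18833 genes measured. They were chosen by name, and the other genes of the pathway were described from a list of 60 complement genes, of which 41 were in the data. The choice was made with earlier results of these data known. From these data the authors had already named C4b as high in an oligodendrocyte cluster seen almost only in knockout mice. The C4b tests below are therefore not independent of that result. Single-cell RNA sequencing libraries were made from hippocampus (both hemispheres) and from a second sample labelled cortex, which was the rest of the left hemisphere without olfactory bulb and cerebellum. The mice were female, on a mixed CBA and C57Bl6J background. Mice 1 and 4 were Fire+/+ (labelled WT), and mice 3 and 6 were FireΔ/Δ (labelled FIREdelta/delta KO), with both copies of the Fms intronic regulatory element of Csf1r deleted. Such mice lack microglia but keep other macrophages of the brain, such as perivascular macrophages. Age was 1 month and 18 days for mice 1 and 3, and 1 month and 16 days for mice 4 and 6. Each mouse gave 1 hippocampus and 1 cortex library, so that there were 8 libraries and 2 mice per genotype. Cells had been sorted as live, with scatter gates against myelin debris, erythrocytes and doublets. The question here was how complement genes differ between genotypes, tissues and the oligodendrocyte clusters that the authors named Oligo1 to Oligo4.

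In these droplet libraries a unique molecular identifier (UMI) stands for 1 captured RNA molecule. Of the 12581 oligodendrocytes in the deposited table, 2373, 1047, 1342 and 1123 were from WT libraries and 2784, 1934, 1074 and 904 from KO libraries. A library held between 12015360 and 27847948 UMIs. Median UMIs per cell ran from 9377 to 13726. Of 12560 distinct cell barcodes, 21 were found in more than 1 library. These numbers, and the values below, are given in the order hippocampus of the lower-numbered mouse, hippocampus of the higher-numbered mouse, then cortex of the same mice. A level is the mean over cells of log2 of the UMI count divided by a size factor, plus 1, and a share is the percentage of cells with at least 1 UMI of the gene, in which it is called detected, with a 95% Clopper-Pearson interval that covers counting error only. Replication was by mouse and not by cell. All 6 oligodendrocyte markers examined were found in every library, with a summed level of 60600 to 72500 CPM (UMIs of the genes per library, scaled to equal library totals).

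Complement is a cascade of blood and tissue proteins that marks targets for removal. The classical pathway starts with C1q and the lectin pathway with mannose-binding proteins and their MASP proteases, and both cleave C4, which leads on to cleavage of C3, the component on which all routes converge. Soluble and membrane-bound regulators hold the cascade in check on host cells, and in the developing brain microglia, a main source of C1q, use complement in the removal of synapses.

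Csf1r, the receptor gene from which the enhancer is deleted, was examined first, and it was detected in 5.31%, 5.83%, 5.81% and 10.2% of WT cells. In the KO libraries the shares were 0.0718%, 0.155%, 0.0931% and 0 of 904 cells, which allows a share of up to 0.332%. The labelled genotypes therefore matched the level of the targeted gene in all 8 libraries. Csf1r is a microglial gene, and whether its UMIs in WT cells, at median depths of 9377 to 13243 UMIs per cell, came from free RNA, from doublets or from the cells themselves was not tested. The 10 microglial markers examined, Csf1r among them, summed to 74.0, 49.4, 59.9 and 115 CPM in WT libraries and to 20.3, 17.3, 21.8 and 16.6 in KO libraries. None was at 0 in a WT library, whereas 3, 2, 3 and 4 of them were at 0 in the KO libraries, Tmem119 in every one. Microglial markers thus moved with genotype, and their part in the differences below was not tested.

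C4b encodes complement component C4, and it lies on chromosome 17 of GRCm38 at chr17:34728380-34743882, minus strand. In WT libraries C4b had a UMI in 4.34% (interval 3.56 to 5.24), 11.8% (9.95 to 14.0), 5.22% (4.09 to 6.54) and 6.14% (4.81 to 7.71) of cells. In KO libraries it had a UMI in 62.1% (60.3 to 63.9), 53.3% (51.0 to 55.5), 38.2% (35.3 to 41.2) and 52.1% (48.8 to 55.4). Every KO library lay above every WT library. In 3 of the WT libraries the share was below that of the microglial gene C1qb in the same cells (8.68%, 6.93% and 20.6% in hippocampus and cortex of mouse 1 and cortex of mouse 4), and it is not read there as expression; in the hippocampus of mouse 4 it was above the 8.88% of C1qb, and whether that is background was not tested. The C1qb share is a mark of caution and does not measure the background of C4b. In the cortex of mouse 1 the highest C4b count in a cell was 13 UMIs. At a common depth of 5000 UMIs per cell, for which no cell had to be left out, the expected shares were 2.6%, 6.39%, 2.84% and 3.34% in WT and 56.5%, 46.6%, 31.0% and 40.9% in KO. Library totals were 137, 286, 128 and 121 C4b UMIs in WT and 18690, 10930, 5074 and 4139 in KO, which came to 5.89, 20.5, 7.58 and 9.48 CPM against 671, 511, 344 and 344. Averaged over both tissues of each mouse, the share was 6.89% in WT and 51.4% in KO, a difference of 44.5 percentage points (SD 2.46; n = 2 mice per genotype; exact permutation p = 0.333, two-sided, which is the smallest this design allows). At the common depth the difference was 40.0 points (SD 1.07).

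**Figure D1:**
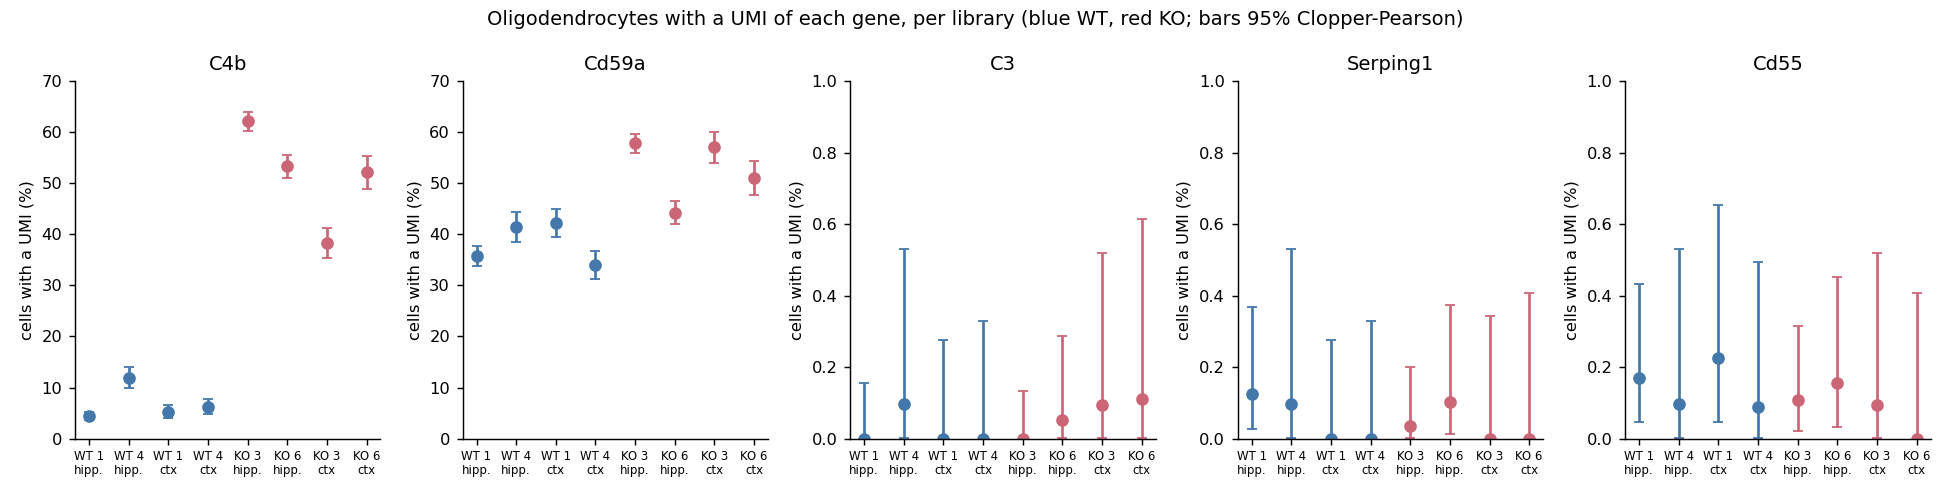
Percentage of oligodendrocytes with a UMI of each of the 5 genes in each of the 8 libraries (blue, WT; red, KO; bars, 95% Clopper-Pearson intervals; note the smaller vertical scale for C3, Serping1 and Cd55). For C4b the 4 KO libraries lie between 38.2% and 62.1% and the 4 WT libraries between 4.34% and 11.8%.

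The mean log2 level of C4b was 0.05, 0.13, 0.05 and 0.06 in WT libraries and 1.74, 1.38, 0.94 and 1.11 in KO libraries. The WT libraries spanned a narrow band near 0, and the hippocampus of mouse 3 was the highest of the KO libraries. Over mice, KO exceeded WT by 1.22 (standard error 0.04, 95% interval 1.09 to 1.34, n = 2 mice per genotype). Comparisons over all genes used limma on mouse means, with Benjamini-Hochberg adjustment over every gene whose share of cells, averaged over the groups compared, was at least 5%. C4b had an adjusted p of 0.43 (unadjusted 4.64e-05), and limma called 0 of 9257 genes (0%), 209 having an unadjusted p under 0.05. edgeR's quasi-likelihood test on UMI sums called 8 genes (0.0864%), with C4b among them at a log2 fold of 5.54 (adjusted p = 0.0158; higher in 2 of 2 KO mice). Since the C4b share of 3 WT libraries is not read as expression, the WT base of this fold and of the C4b folds below is uncertain to that degree. Of the 8, C4b, Serpina3n, Cebpd, Snx10 and Tmem176b were higher in KO and C1qa, C1qb and 9330117O12Rik lower. Snx10, Tmem176b and 9330117O12Rik are named here only because their values were seen. Serpina3n and Cebpd had mean log2 levels of 0.02 and 0.03 in WT against 0.71 and 0.26 in KO. They may have passed the filter only through KO, so their calls are support for nothing. Libraries of the same batch, as the deposited table numbers batches, held 1 WT and 1 KO mouse of 1 tissue, and KO exceeded WT by 1.69 in batch 3 and 1.25 in batch 5 (hippocampus), and by 0.88 in batch 4 and 1.05 in batch 6 (cortex). Separation of all 4 KO libraries above all 4 WT libraries was seen for 257 of 9257 genes (2.78%), and the reverse for 125 (1.35%).

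The KO level came partly from Oligo1, which made up 30.9%, 23.2%, 13.7% and 10.8% of the cells of the KO libraries and was nearly absent from WT, where it held 6 cells of the hippocampus of mouse 4 and 0 of the other libraries. The clusters were built from the same expression values, so a contrast of Oligo1 with other clusters is a description and was not tested. In Oligo1 cells of KO libraries, C4b had a UMI in 98.8%, 98.7%, 98.6% and 99.0% of cells, at mean log2 levels of 3.47, 3.42, 3.51 and 3.36. Oligo1 gave 72.4%, 69.1%, 64.6% and 44.9% of the C4b UMIs of the KO libraries. Of the 6 Oligo1 cells in WT, 3 had a C4b UMI.

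With Oligo1 left out, C4b still had a UMI in 45.7%, 39.6%, 28.6% and 46.4% of KO cells, at mean log2 levels of 0.97, 0.76, 0.53 and 0.84. No KO library overlapped a WT library. The difference between genotypes over Oligo2 to Oligo4 was 0.70 (standard error 0.03, 95% interval 0.61 to 0.79, limma adjusted p = 0.748; edgeR log2 fold 4.35, adjusted p = 0.0318; n = 2 mice per genotype). Here limma called 0 of 9232 genes (0%), 133 having an unadjusted p under 0.05, and edgeR called 3 (0.0325%): C4b, Cebpd and C1qb. Within batches 3, 4, 5 and 6 the C4b difference was 0.92, 0.47, 0.64 and 0.77. All 4 KO libraries lay above all 4 WT libraries for 135 genes (1.46%) and below them for 88 (0.953%).

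Each of the other clusters was also examined alone. In Oligo2, the mean log2 level of C4b was 0.03, 0.15, 0.04 and 0.08 in WT libraries and 1.42, 1.25, 0.83 and 1.03 in KO libraries, and in Oligo3 it was 0.05, 0.12, 0.06 and 0.06 against 0.67, 0.50, 0.34 and 0.67. In Oligo4 the levels were 0.01, 0.08, 0.04 and 0.07 in WT and 1.59, 1.04, 1.18 and 1.36 in KO. The genotypes were apart in each cluster, and the KO excess was smallest in Oligo3, although the difference between clusters was not tested. The difference was 1.05 in Oligo2 (standard error 0.03, limma adjusted p = 0.165; edgeR log2 fold 4.85, adjusted p = 0.00584), 0.47 in Oligo3 (standard error 0.04, limma adjusted p = 1; edgeR log2 fold 3.57, adjusted p = 0.0152) and 1.24 in Oligo4 (standard error 0.07, limma adjusted p = 0.748; edgeR log2 fold 5.7, adjusted p = 6.32e-08). limma called 0 of 9292, 0 of 9135 and 0 of 9381 genes in Oligo2, Oligo3 and Oligo4 (0% each), with 139, 103 and 282 at an unadjusted p under 0.05. edgeR called 4 genes in Oligo2 (0.043%: C4b, Serpina3n, Cebpd and C1qb), 3 in Oligo3 (0.0328%: C4b, C1qa and C1qb) and 25 in Oligo4 (0.266%).

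**Figure D2:**
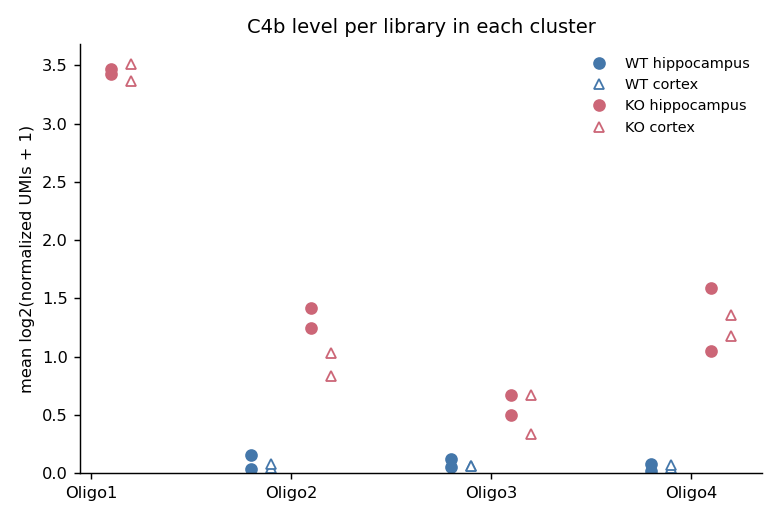
Mean log2 level of C4b per library in each cluster (circles, hippocampus; triangles, cortex; blue, WT; red, KO). In KO libraries Oligo1 lies between 3.36 and 3.51 and Oligo3 between 0.34 and 0.67, and all WT points of Oligo2 to Oligo4 lie at or below 0.15.

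Averaged over KO mice, the order of levels was Oligo1 at 3.44 (SD 0.07), Oligo4 at 1.29 (SD 0.13), Oligo2 at 1.13 (SD 0.01) and Oligo3 at 0.54 (SD 0.06; n = 2 mice). Oligo1 was the highest and Oligo3 the lowest in all 4 KO libraries, whereas Oligo2 and Oligo4 changed places in the hippocampus of mouse 6. In WT libraries, Oligo2 to Oligo4 differed by 0.02 to 0.07 and had no constant order. The files held no cell type that lacks C4b, so how much free RNA from Oligo1 cells entered the share of other clusters was not tested. The clusters of a library did not have a like share: in the hippocampus of mouse 3, C4b had a UMI in 70.7% of Oligo4 cells (64.8 to 76.1) and 35.7% of Oligo3 cells (33.0 to 38.5), at median depths of 10956 and 8883 UMIs, and the shares expected at 5000 UMIs per cell were 60.2% and 28.8%.

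The number of C4b UMIs in a cell also differed. At least 5 were found in 0.126%, 1.43%, 0.373% and 0.445% of WT cells and in 42.8%, 34.0%, 22.7% and 28.3% of KO cells. In Oligo2 to Oligo4 of KO libraries these shares were 20.8%, 16.2%, 11.5% and 20.2%, and in Oligo1 they were 92.2%, 93.3%, 93.2% and 94.9%. Cells with many C4b UMIs were thus found outside Oligo1 too. The highest count was 65 in a KO cell and 15 in a WT cell.

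**Figure D3:**
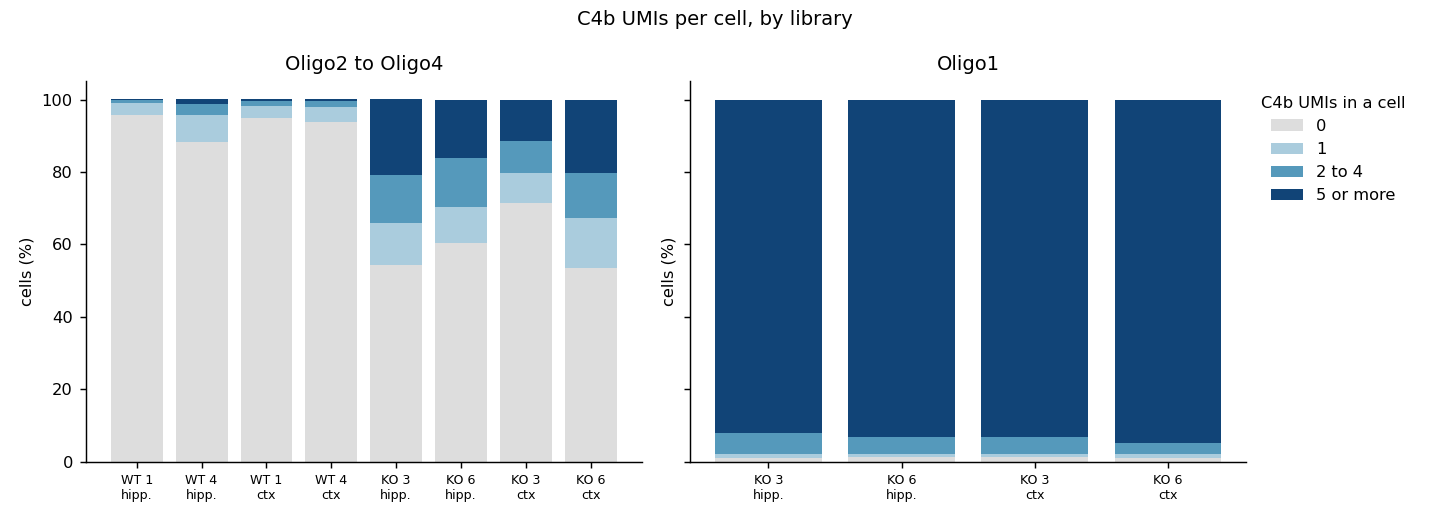
Percentage of cells with 0, 1, 2 to 4, and 5 or more C4b UMIs in each library, for Oligo2 to Oligo4 (left, 8 libraries) and Oligo1 (right, 4 KO libraries). In Oligo2 to Oligo4, 53.6% to 71.4% of KO cells and 88.4% to 95.7% of WT cells had no C4b UMI.

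C4a, the near-identical copy of C4b at chr17:34809092-34823464, had a UMI in 0.674% to 1.5% of cells of every library. How the authors' counting treated reads that fit both copies was not tested, so the C4b values are uncertain to that degree. C3, the central component, at chr17:57203970-57228136, had 5 UMIs in 4 of 12581 cells (0.0318%). It was at 0 in 4 of the 8 libraries, and its highest share was 0.111%, in the cortex of mouse 6. Among the WT libraries, 0 of 2373, 0 of 1342 and 0 of 1123 cells had a UMI, which allows shares of up to 0.126%, 0.224% and 0.267%, and a genotype difference in C3 was not detectable at this depth. Averaged over mice, the share was 0.0239% in WT and 0.0639% in KO (exact permutation p = 0.667, n = 2 mice per genotype). Of the other components in the data, C4b alone passed this filter on low genes; C2, C4a, Cfp, C8g and Hc, the gene of C5, had UMIs in 0.596%, 0.962%, 2.23%, 0.421% and 0.0238% of all cells, and 7 of the 14 listed components, among them Cfb and Cfd, were not in the data.

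Of the genes that start the cascade, 9 of 15 listed were in the data and 3 passed the filter on low genes, C1qa and C1qb among them only through their WT libraries. Masp1, which encodes a protease of the lectin pathway, was detected in 9.19%, 20.2%, 8.79% and 12.1% of WT cells and in 38.7%, 36.7%, 26.3% and 28.4% of KO cells. Its mean log2 level was 0.08, 0.16, 0.06 and 0.10 in WT and 0.47, 0.40, 0.24 and 0.26 in KO. All KO libraries lay above all WT libraries. In the cortex of WT mouse 4 the share was below the 20.6% of C1qb. In the hippocampus of WT mouse 1 it was below the 9.44% of C1qa, though above the 8.68% of C1qb. Masp1 is not read as expression in either library, and the WT base of its fold is uncertain to that degree. These microglial shares are a mark of caution and do not measure the background of Masp1. The difference was 0.24 (standard error 0.03, 95% interval 0.16 to 0.32, unadjusted p = 0.00193, limma adjusted p = 1; edgeR log2 fold 2.07, adjusted p = 0.0801; n = 2 mice per genotype), and within batches 3, 4, 5 and 6 it was 0.38, 0.18, 0.24 and 0.16. Without Oligo1 it was 0.12 (standard error 0.02, limma adjusted p = 1), and within Oligo4 it was 0.20 (standard error 0.03, limma adjusted p = 1; edgeR log2 fold 1.43, adjusted p = 0.00746). In Oligo1, Masp1 had a UMI in 69.7%, 70.3%, 69.4% and 62.2% of KO cells.

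C1qa and C1qb, which encode chains of C1q, went the other way. C1qa had a UMI in 9.44%, 7.64%, 7.6% and 16.7% of WT cells and in 0.0359%, 0.103%, 0.0931% and 0 of 904 KO cells, which allows up to 0.332%, and C1qb had one in 8.68%, 8.88%, 6.93% and 20.6% against 0.108%, 0.103%, 0.0931% and 0. The mean log2 difference was -0.09 for each (standard errors 0.01 and 0.02, limma adjusted p = 1; edgeR log2 folds -4.95 and -6.44, adjusted p = 0.00827 and 0.0124). Of the C1qa UMIs in KO hippocampus, 12 were in 1 Oligo1 cell of mouse 3 and 13 in 1 Oligo4 cell of mouse 6, so few cells set its fold. C1qa and C1qb were in the test only through the group where they are high, and genes let in that way had to differ. These genes are made by microglia, and they are lower in the same libraries as the microglial markers given above. The part of microglial RNA in the C1qa and C1qb differences was not tested.

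Among soluble regulators, 4 of 8 listed genes were in the data. Serping1, which encodes C1 inhibitor, at chr2:84765387-84775444, had 9 UMIs in 7 of 12581 cells (0.0556%). In hippocampus it was detected in 0.126% and 0.0955% of WT cells and in 0.0359% and 0.103% of KO cells. All 4 cortex libraries were at 0, which allows shares of up to 0.224%, 0.267%, 0.279% and 0.332% in mice 1, 4, 3 and 6, so a difference between tissues was not detectable at this depth (exact permutation p = 0.125 over 4 mice, the smallest allowed). Clu, which encodes clusterin, an inhibitor of the terminal complex, was found in 31.5% to 47.2% of cells, with a genotype difference of 0.02 (standard error 0.02, limma adjusted p = 1).

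Membrane regulators were the group with most genes above the filter, 5 of 13 in the data, and also the group with most genes in the data. Over all genes, 9257 of 18833 passed the filter, so the count is not read as a trait of this group. Cd59a encodes CD59, which stops assembly of the membrane attack complex, and it was detected in 35.8% (33.8 to 37.7), 41.4% (38.4 to 44.4), 42.2% (39.5 to 44.9) and 33.9% (31.2 to 36.8) of WT cells. In KO libraries the shares were 57.9%, 44.2% (42.0 to 46.5), 57.0% and 51.0%, and the interval of the hippocampus of mouse 6 overlapped those of the hippocampus of mouse 4 and the cortex of mouse 1. The mean log2 level was 0.43, 0.44, 0.50 and 0.43 in WT and 0.88, 0.56, 0.83 and 0.63 in KO. Both libraries of KO mouse 3 were higher than both of KO mouse 6, and every KO library had a higher level than every WT library. The difference was 0.27 (standard error 0.10, 95% interval -0.04 to 0.59, unadjusted p = 0.0679, limma adjusted p = 1; edgeR log2 fold 0.86, adjusted p = 1; n = 2 mice per genotype). Within batches it was 0.44 in batch 3, 0.33 in batch 4, 0.12 in batch 5 and 0.20 in batch 6, and with mouse 3 left out it was 0.15. Over Oligo2 to Oligo4, the shares in KO were 48.8%, 38.3%, 53.3% and 48.8%, which overlapped the WT libraries, and the difference in level was 0.18 (standard error 0.08, 95% interval -0.05 to 0.42, limma adjusted p = 1), or 0.26, 0.26, 0.03 and 0.17 within batches 3, 4, 5 and 6. The share over all oligodendrocytes averaged 38.3% in WT and 52.5% in KO mice, a difference of 14.2 points (SD 4.97, exact permutation p = 0.333), and 12.3 points at the common depth.

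Cd59a levels followed cluster in both genotypes. Over WT mice they averaged 1.01 in Oligo2 (SD 0.10), 0.32 in Oligo3 (SD 0.00) and 0.24 in Oligo4 (SD 0.01). Over KO mice they averaged 1.25 in Oligo2 (SD 0.25), 1.07 in Oligo1 (SD 0.29), 0.42 in Oligo3 (SD 0.08) and 0.36 in Oligo4 (SD 0.11). The order was the same in all 8 libraries, Oligo2, Oligo3, Oligo4, with Oligo1 second in the 4 KO libraries. The genotype difference was 0.24 within Oligo2 (standard error 0.15), 0.10 within Oligo3 (0.05) and 0.12 within Oligo4 (0.06), each with a limma adjusted p of 1. With each mouse left out, these ran from 0.07 to 0.42, 0.05 to 0.16 and 0.04 to 0.19.

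**Figure D4:**
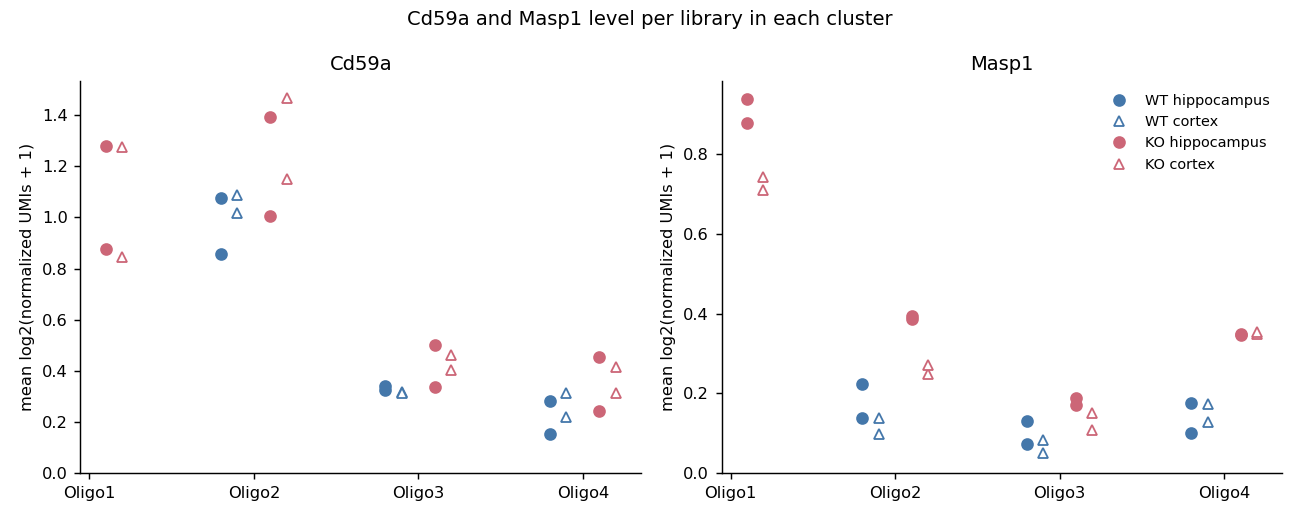
Mean log2 level of Cd59a (left) and Masp1 (right) per library in each cluster (circles, hippocampus; triangles, cortex; blue, WT; red, KO). Cd59a is highest in Oligo2 in every library, and Masp1 in KO libraries is highest in Oligo1, between 0.71 and 0.94.

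Cd59b, a paralog of Cd59a next to it on chromosome 2, had a UMI in 1.1%, 1.05%, 0.82% and 0.89% of WT cells, in 0.144% and 0 of 1074 cells of the hippocampus and cortex of KO mouse 3, and in 2.17% and 2.43% of those of KO mouse 6. The zero allows a share of up to 0.279%. KO mouse 3 was thus high for Cd59a and low for Cd59b. How reads that fit both paralogs were counted was not tested, so the values of both genes are uncertain to that degree. The promoter windows of both genes, 250 bases before to 50 after the start, are shown because these neighbouring copies had unlike levels (RefSeq, GRCm38.p6; plus strand; chr2:104095551-104095850 for Cd59a and chr2:104070816-104071115 for Cd59b; capitals mark a match to the letters of the interferon-stimulated response element).
Cd59a: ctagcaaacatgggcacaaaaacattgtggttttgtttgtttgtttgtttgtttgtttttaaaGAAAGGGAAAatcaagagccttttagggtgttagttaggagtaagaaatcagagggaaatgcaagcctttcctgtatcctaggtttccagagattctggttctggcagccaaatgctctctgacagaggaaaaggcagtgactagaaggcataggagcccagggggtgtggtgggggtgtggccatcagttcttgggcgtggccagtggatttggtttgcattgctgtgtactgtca
Cd59b: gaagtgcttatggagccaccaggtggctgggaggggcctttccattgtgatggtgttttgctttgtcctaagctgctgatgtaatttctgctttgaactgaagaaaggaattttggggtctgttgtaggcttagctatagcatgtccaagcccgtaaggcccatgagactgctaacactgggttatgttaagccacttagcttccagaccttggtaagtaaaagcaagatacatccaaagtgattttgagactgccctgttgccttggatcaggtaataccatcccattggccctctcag
Letters searched on both strands were TTCNNNGAA, the interferon-stimulated response element and the NF-kB site, which 8.3%, 3.44% and 0.411% of all 32851 windows of this length held. The Cd59a window held 1 match, to the response element, that began 187 bases before the start, and the Cd59b window held none. In the GENCODE annotation Cd59b begins at chr2:104069849, before its window, whereas Cd59a begins at chr2:104095801, within its own. By that annotation the windows are not at like positions, so their matches are not compared. Of the 5 members, 3 had a window, Cd59a, C3 and Cd55, and no letters searched were in those of C3 and Cd55. C4b and Serping1 had none.

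Cd55, which encodes decay-accelerating factor, a membrane protein that dissociates the C3 convertases, at chr1:130439027-130462744, had 17 UMIs in 16 of 12581 cells (0.127%). The share was 0.169%, 0.0955%, 0.224% and 0.089% in WT libraries and 0.108%, 0.155%, 0.0931% and 0 of 904 cells in KO libraries, which allows up to 0.332%. The intervals of all libraries overlapped, and the shares, 0.144% in WT and 0.089% in KO, gave an exact permutation p of 0.667 (n = 2 mice per genotype). Its paralog Cd55b was not in the data. Thus 2 of the 5 members, C4b and Cd59a, passed the filter on low genes, and 3, C3, Serping1 and Cd55, did not. Cr1l, which encodes Crry, the rodent regulator of C3 convertases, was found in 30.7% to 44.0% of cells (difference 0.03, standard error 0.01). Of the CSMD and SEZ6 families, proteins with complement control domains, Csmd2 was found in 12.3% to 19.7% of cells (-0.01, standard error 0.02), Csmd3 in 35.9% to 50.8% (-0.03, standard error 0.01) and Sez6l2 in 92.5% to 98.8% (0.14, standard error 0.09). Each of these 4 had a limma adjusted p of 1. In the cortex of WT mouse 4 the Csmd2 share, 17.5%, was below the 20.6% of C1qb, so Csmd2 is not read as expression there either. Over Oligo2 to Oligo4 the Sez6l2 difference ran from 0.14 to 0.33 with each mouse left out. With all mice it had a limma unadjusted p under 0.05 there. None of the 8 receptor genes in the data passed the filter; Itgam, a chain of complement receptor 3, had a UMI in 1.05%, 1.53%, 1.12% and 1.34% of WT cells and at most 0.18% of cells of a KO library.

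Over the complement list, 10 genes were tested between genotypes over all oligodendrocytes, of which 6 were higher and 4 lower in KO, with a median difference of 0.028 against 0.001 over all 9257 genes. limma called 0 of the 10 in either direction, 4 having an unadjusted p under 0.05 (209 of all 9257 genes), and edgeR called 1 higher, C4b, and 2 lower, C1qa and C1qb (8 of all genes, 0.0864%). C1qa and C1qb passed the filter only through WT, so the counts and medians in this paragraph describe the genes tested and are support for nothing. The 4 KO libraries lay above the 4 WT libraries for C4b, Masp1 and Cd59a, and below them for C1qa, C1qb and Csmd3, that is, for 3 and 3 of the 10, beside 257 (2.78%) and 125 (1.35%) of all 9257 genes. Over Oligo2 to Oligo4 the median was 0.026, limma called 0 of the 10 (5 at an unadjusted p under 0.05, and 133 of all 9232 genes), and edgeR called C4b higher and C1qb lower (3 of all genes, 0.0325%). Libraries were apart there for C4b and Masp1, higher in KO (135 of all genes, 1.46%), and for C1qa and C1qb, lower (88 of all genes, 0.953%). By role, the median difference over all oligodendrocytes was -0.087 for the 3 genes that start the cascade, 1.218 for the 1 component, 0.023 for the 1 soluble regulator and 0.033 for the 5 membrane regulators.

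**Figure D5:**
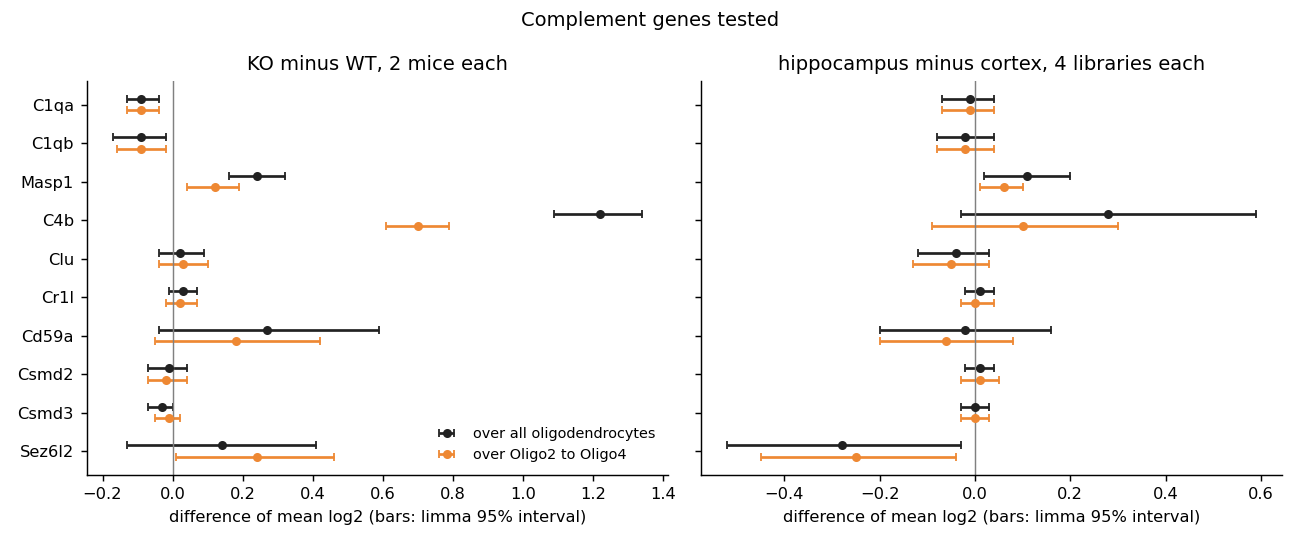
Difference of mean log2 level for the 10 complement genes tested, KO minus WT (left, 2 mice each) and hippocampus minus cortex (right, 4 libraries each), over all oligodendrocytes (black) and Oligo2 to Oligo4 (orange), with 95% limma intervals. C4b between genotypes lies at 1.22 and 0.70, and the intervals of Masp1 also lie above 0.

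Hippocampus and cortex were compared over libraries with genotype in the model, which leaves the pairing of tissues within mice out of the standard error. Adjusted p from the fit with mouse as a block, which follows the pairing, are given beside it. Hippocampus libraries were batches 3 and 5 and cortex libraries batches 4 and 6, so tissue cannot be told apart from batch. The authors described batch 6 as of poorer quality. The share of mitochondrial UMIs was lower in hippocampus in every mouse (4.85%, 5.05%, 4.65% and 4.67% against 5.42%, 6.24%, 5.42% and 6.28% in mice 1, 4, 3 and 6). Its part in the tissue differences was not tested. Over all oligodendrocytes the C4b level was 0.541 in cortex and 0.823 in hippocampus, a difference of 0.28 (standard error 0.13, 95% interval -0.03 to 0.59, unadjusted p = 0.0693, limma adjusted p = 0.959; n = 4 libraries per tissue). By mouse it was -0.01 and 0.06 in WT mice 1 and 4 and 0.80 and 0.27 in KO mice 3 and 6. The excess in hippocampus was thus mainly that of mouse 3, and with that mouse left out the difference was 0.11. With mouse as a block, limma gave C4b the same difference with an adjusted p of 0.408 and called 0 genes. limma called 0 of 9257 genes (0%), 490 having an unadjusted p under 0.05, and edgeR called 0 (0%). The share of cells with C4b was 25.4% in cortex and 32.9% in hippocampus, higher in hippocampus in 3 of 4 mice (exact permutation p = 0.25). Over all genes, hippocampus was above cortex in all 4 mice for 628 (6.78%) and below it for 1722 (18.6%).

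Oligo1 took a larger share of KO hippocampus than of KO cortex in both mice, as given above. Within Oligo1 the C4b level was 3.44 in both tissues of KO mice (difference 0.01, standard error 0.06, 95% interval -0.16 to 0.17, limma adjusted p = 0.999, or 0.971 with mouse as a block; n = 2 libraries per tissue), with 0 of 9371 genes called (0%; 410 at an unadjusted p under 0.05; edgeR was not run here). Over Oligo2 to Oligo4 the C4b difference was 0.10 (standard error 0.08, 95% interval -0.09 to 0.30, limma adjusted p = 0.998), being -0.01, 0.06, 0.44 and -0.07 in mice 1, 4, 3 and 6. There limma called 0 of 9232 genes (0%; 476 at an unadjusted p under 0.05) and edgeR called 0 (0%). With mouse as a block, which follows the pairing, limma called 6 genes, Tspan2, Sept7, Gsn, Trim35, S100b and Hist1h1e, named because their values were seen, and C4b had an adjusted p of 0.615. Hippocampus was above cortex in all 4 mice for 613 genes (6.64%) and below for 1691 (18.3%). Within Oligo2, Oligo3 and Oligo4 it was 0.21, 0.05 and 0.02, with limma adjusted p of 0.922, 1 and 0.998, or 0.439, 0.811 and 0.974 with mouse as a block. In these clusters limma called 0 genes (0%; 502, 437 and 463 at an unadjusted p under 0.05) and edgeR called 0, 0 and 2 (0%, 0% and 0.0213%), the 2 being the haemoglobin genes Hbb-bs and Hba-a1, which are named because their values were seen. The genotype difference in C4b was larger in hippocampus than in cortex by 0.51 (standard error 0.19, 95% interval -0.03 to 1.05, unadjusted p = 0.0582, limma adjusted p = 0.818; 0.24 to 0.77 with each mouse left out) over all oligodendrocytes and by 0.16 (standard error 0.18, limma adjusted p = 0.933) over Oligo2 to Oligo4. limma called 0 of 9257 and 0 of 9232 genes for this interaction (0% each; 574 and 482 at an unadjusted p under 0.05; edgeR was not run).

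Masp1 was higher in hippocampus in all 4 mice, by 0.02, 0.06, 0.23 and 0.14 in mice 1, 4, 3 and 6 (difference 0.11, standard error 0.04, unadjusted p = 0.0198, limma adjusted p = 0.833, or 0.267 with mouse as a block), and by 0.18 within Oligo1 (standard error 0.03, unadjusted p = 0.0052, limma adjusted p = 0.999, or 0.0893 with the block). The genotype difference in Masp1 was larger in hippocampus than in cortex, by 0.1 to 0.19 with each mouse left out. Sez6l2 differed by -0.28 between tissues (standard error 0.10, unadjusted p = 0.0331, limma adjusted p = 0.91, or 0.27 with the block), being lower in hippocampus in 3 of 4 mice. Cd59a did not differ between tissues beyond its spread (-0.02, standard error 0.08, 95% interval -0.20 to 0.16, limma adjusted p = 0.999, or 0.732 with the block), and by mouse the difference was -0.06, 0.01, 0.05 and -0.07. Over the list, 4 of 10 genes were higher and 6 lower in hippocampus, with a median of -0.009 against -0.005 over all genes, and 2, Masp1 and Sez6l2, had an unadjusted p under 0.05 (490 of all 9257 genes). Without Oligo1 the list was divided 5 and 5, with a median of -0.007, and the same 2 genes had an unadjusted p under 0.05 (476 of all 9232 genes). limma and edgeR called 0 of the 10 in either set of cells.

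The genes whose levels were most like those of C4b over 28 groups of at least 20 cells (library by cluster) were Cebpd (Pearson r = 0.98), Masp1 (0.97), Serpina3n (0.97), Cela1 (0.97) and Syne2 (0.94), among 9257 genes. Groups of a library share its depth, and Oligo1 sets much of the range: over the 24 groups without Oligo1, r was 0.95, 0.91, 0.88, 0.86 and 0.83 in the same order. These groups still held both genotypes, so a gene that differs between WT and KO as C4b does gains a high r. Cebpd and Serpina3n may have passed the filter only through KO, as said above. The ranking is thus a description and is support for nothing. For Cd59a the most alike genes were Rassf4 (0.94), Msn (0.94) and Fam20c (0.92), and without Oligo1 they had r of 0.93, 0.93 and 0.92. C4b and Cd59a had r = 0.46 with each other, and 0.25 without Oligo1.

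The 8 astrocyte markers summed to 237, 234, 246 and 280 CPM in WT libraries and 195, 278, 226 and 237 in KO libraries (Slc1a2 the most abundant), none at 0, and the genotypes overlapped; the part of astrocyte RNA in the C4b difference was not tested. In Oligo1 of KO libraries the same markers summed to 145, 222, 158 and 178 CPM. Progenitor markers (5, with Ptprz1 the most abundant) summed to 16.6 to 52.2, neuronal markers (6) to 11.4 to 63.2 and mural and fibroblast markers (6 in the data) to 0.746 to 7.44 CPM. In hippocampus the progenitor sum was higher in both KO libraries than in both WT libraries, and highest (52.2) in KO mouse 3. In cortex the genotypes overlapped, and the part of progenitor RNA in the differences of C4b and Masp1 was not tested. The 5 endothelial markers (Ly6c1 the most abundant) summed to 4.08, 10.6, 19.5 and 23.1 CPM in WT and 22.2, 25.0, 20.9 and 22.9 in KO, so that in hippocampus they were higher in both KO libraries than in both WT libraries, and their part in the differences of C4b and Masp1 was not tested. Erythrocyte markers (4, Hbb-bs the most abundant) summed to 994, 31.6, 198 and 224 CPM in WT and 878, 233, 215 and 82.3 in KO. Hbb-bs and Hba-a1 were among the 25 genes that edgeR called between genotypes within Oligo4, at log2 folds of 5.38 and 6.11, and the part of erythrocyte RNA in the other differences of that cluster was not tested.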

How the data were processed

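Single-cell libraries (10x 3' chemistry) of 4 mice were analysed. Per the submitters' notes, the authors counted UMIs with Cell Ranger 5.0.0 on mm10, kept mature oligodendrocytes and normalized with size factors. The deposited signal is log2 of the UMI count over the size factor, plus 1, made by the authors, and a deposited cell table holds total counts, percent of mitochondrial UMIs, size factor, batch and cluster. UMI counts were recovered from these log2 values, all 42420937 values above 0 being whole within 0.001. The recovered total equalled the deposited total in 11264 of 12581 cells, and the largest difference was 147 UMIs. Scatter gates against doublets were used at sorting, and no doublet caller was run, so droplets with more than 1 cell may remain.

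Genes with a share of cells of at least 5%, averaged over the groups compared, went into limma 3.58.1 (R 4.3.3) as mean log2 per mouse (genotype, both tissues weighted equally; interaction on the tissue difference of each mouse) or per library (tissue, genotype in the model), with Benjamini-Hochberg adjustment at 0.05. Within a cluster, libraries with at least 20 of its cells were used. Shares were compared by two-sided exact permutation of mouse labels or, between tissues, of signs (scipy 1.17.1), as counted and thinned to 5000 UMIs per cell. For a count of 0, the limit is 3 divided by the number of cells. With 2 mice per genotype, p-values measure only the spread between these mice. The fits were also run on simulated data, and no result here rests on that run. Coordinates are from the GENCODE annotation of GRCm38.

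Alternatives were a log2 taken after averaging cells (with 0.1 or 1 added), a filter of 10% of cells or none, median centring, edgeR 4.0.16 (quasi-likelihood, TMM) on UMI sums, either tissue alone, pooled cells, a block for age or mouse, the libraries without batch 6, and each mouse left out. Both libraries of a mouse number come from 1 animal and are paired; the deviations of its tissues had a correlation across genes of 0.84 in WT and 0.85 in KO.

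The genes named are the 5 members, Csf1r, complement genes that passed the filter or the threshold, the paralogs C4a, Cd55b and Cd59b, and those most alike in pattern (5 for C4b, 3 for Cd59a); other genes are named where a count of few genes, a role or a marker list called for it. Members, lists and tests were chosen with earlier results of these data known. The complement list covered classical and lectin initiation, components, soluble regulators, membrane regulators and receptors; marker lists covered oligodendrocytes, microglia, astrocytes, progenitors, neurons, endothelium, mural cells and fibroblasts, and erythrocytes.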

Additional observations from a re-analysis of the deposited data

Results flagged for a closer look

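In 40 groups of 4 libraries, formed by gene, genotype and cell set for the 10 complement genes tested, 6 had a library far from the other 3. Chance gives about 1 in 20 such groups (5%), and in WT mice the set of all oligodendrocytes and the set without Oligo1 hold nearly the same cells. All 6 were among WT libraries. The mean log2 level of Cr1l was 0.355 in the hippocampus of mouse 4, with the nearest other WT library at 0.316, in both cell sets. That of Cd59a was 0.498 in the cortex of mouse 1, with the nearest at 0.439, or 0.438 without Oligo1. That of Sez6l2 was 2.311 in the hippocampus of mouse 1, with the nearest at 2.603, in both cell sets. The cause was not tested. In 0 cases did all samples of 1 tissue move opposite to those of the other between genotypes.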

How the results depend on the processing

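Over 72 results (the members, counts of called genes, and list genes at an unadjusted p under 0.05), 472 of 509 alternatives kept direction and side of the threshold, 14 newly passed it, 13 moved a count and 10 reversed sign. The causes were not tested.

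With log2 of the mean normalized value plus 0.1, limma called 2 genes over all oligodendrocytes and 2 without Oligo1, C4b and Serpina3n each time, with C4b at 4.25 and 3.19. With no filter it called 1 and 1 (9330117O12Rik, named because its value was seen). edgeR called 8, 3, 4, 3 and 25 genes (all, Oligo2 to Oligo4, Oligo2, Oligo3, Oligo4), with C4b at 5.54, 4.35, 4.85, 3.57 and 5.7; C1qa reached -4.95 over all and -8.38 in Oligo3, C1qb -6.44, -6.37, -7.14, -7.51 and -4.22, and Masp1 1.43 in Oligo4. The C1qa and C1qb folds rest on few KO UMIs. In Oligo3 of KO libraries C1qa had 1 UMI, in the hippocampus of mouse 6, and the others were at 0, so its fold there is not a measured one. In Oligo4 of KO libraries the C1qb UMIs were 5, in 1 cell of the hippocampus of mouse 6. Over its alternatives the adjusted p of C4b ran from 0.00549 to 1 over all oligodendrocytes and from 0.023 to 1 without Oligo1. Mouse as a random block gave 1 gene (Tmem80) and 3 (Tmem80, Tmsb4x and Gsn), named because their values were seen.

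Mouse as a replicate block, which follows the pairing of tissues, gave 6 genes between tissues over Oligo2 to Oligo4, none a member, and left C4b at 0.28 over all oligodendrocytes (adjusted p = 0.408) and 0.10 over Oligo2 to Oligo4 (0.615); it changed no other call. edgeR between tissues within clusters, added after seeing the data, called 2 genes in Oligo4.

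With each mouse left out, the genotype difference of C4b ran from 1.17 to 1.26 over all oligodendrocytes and 0.68 to 0.73 without Oligo1, and that of Cd59a from 0.15 to 0.40 and 0.09 to 0.28. The tissue difference of C4b ran from 0.11 to 0.38 over all oligodendrocytes, -0.01 to 0.16 over Oligo2 to Oligo4, 0.09 to 0.29 in Oligo2, -0.04 to 0.13 in Oligo3 and -0.11 to 0.13 in Oligo4, and its interaction over Oligo2 to Oligo4 from -0.10 to 0.41, the reversals all coming without mouse 3. That of Cd59a ran from -0.01 to 0.02 in Oligo3 and -0.06 to 0.01 in Oligo4, its interaction over all oligodendrocytes from -0.04 to 0.07, and its tissue difference in share was 0.245 points at the common depth against -1.21 as counted. A lone mouse of a genotype was assumed to vary like the others. Leaving out a mouse in Oligo1 left no residual degrees of freedom. For other list genes 49 of 548 alternatives reversed, none with a value above 0.11 in size.

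The data have limits: with 2 mice per genotype the exact test has no p under 0.333, and C3, Serping1 and Cd55 had too few UMIs for a comparison of levels.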
